A study of Mus musculus with 50 samples.

Results

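The genes described here encode voltage-gated and potassium ion channels of mouse ESCs. They were chosen by symbol: voltage-gated K+ pore subunits, inward rectifiers, tandem-pore K+ channels, calcium- and sodium-activated K+ channels and K+ auxiliary subunits (Kcn), calcium channel pore and auxiliary subunits (Cacn) and sodium channel pore and beta subunits (Scn), without *Kcnq1*. The rule held 115 of the 18055 genes of the RNA-seq table. RNA was sequenced in 4 lines with 2 libraries each: E14 cells (WT), *Ezh2* KO cells with a macrodeletion of *Ezh2*, *Ezh1/2* dKO cells without both genes, and *Ezh2* Y726D cells, whose point mutation sits in an *Ezh1* KO background. ChIP-seq peak lists of SUZ12 and H3K27me3 covered these 4 lines and *Ezh2* R685C, a second point mutation made in *Ezh1* KO cells, and H3K27ac lists covered the 4 mutant lines. HA peak lists came from *Ezh1/2* dKO cells transiently transfected with human HA-EZH1 and from *Ezh1/2* dKO cells without it. All lines derive from E14TG2a by CRISPR/Cas9, the KO lines were picked as clones, and all were grown on gelatin in 2i/LIF medium with serum. WT thus carries both *Ezh1* and *Ezh2*, *Ezh2* KO carries *Ezh1* alone, and both point mutants carry mutated *Ezh2* alone. The study asked what PRC2 at chromatin does with and without its enzymatic activity, and its channel genes are described for that comparison.

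Voltage-gated channels open when the membrane potential changes and let K+, Ca2+ or Na+ through a pore formed by the alpha subunits, while auxiliary subunits set their traffic and gating. They shape the action potentials of neurons, heart and muscle. Inward rectifiers and tandem-pore K+ channels hold the resting potential, and calcium- or sodium-activated K+ channels follow ion levels inside the cell. PRC2 is the Polycomb complex that methylates H3K27, with SUZ12 as a core subunit and EZH1 or EZH2 as the enzyme. H3K27me3 marks genes of other lineages that ESCs keep silent, and H3K27ac on the same lysine marks active promoters and enhancers.

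The sequences that follow, from mm9, show 3 promoters and 1 SUZ12 peak on which the results turn, with each CpG dinucleotide (CG, which reads the same on both strands) in capitals. The first, 7 CpG in 250 bases, lies before the start of *Kcnj3* (chr2:55288131-55288380, + strand), which encodes a G protein-gated inward rectifier and rose in 2 mutant lines. The second, with 22 CpG, lies before *Scn4b* (chr9:44946270-44946519, + strand), a sodium channel beta subunit with a strong SUZ12 peak. The third, with 19 CpG, lies before *Kcnk5* (chr14:21001005-21001254, - strand), the channel gene with the highest level and no SUZ12 peak. The last, with 31 CpG, is the centre of the WT SUZ12 peak near *Cacna1s* (chr1:137947611-137947860, + strand), which encodes the L-type calcium channel pore of skeletal muscle. This stretch lies inside the neighbouring gene *Ascl5*.
Kcnj3: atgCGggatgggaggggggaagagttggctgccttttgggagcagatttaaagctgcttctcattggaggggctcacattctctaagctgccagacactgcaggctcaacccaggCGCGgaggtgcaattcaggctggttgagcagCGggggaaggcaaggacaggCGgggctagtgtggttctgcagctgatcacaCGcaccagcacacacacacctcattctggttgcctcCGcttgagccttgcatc
Scn4b: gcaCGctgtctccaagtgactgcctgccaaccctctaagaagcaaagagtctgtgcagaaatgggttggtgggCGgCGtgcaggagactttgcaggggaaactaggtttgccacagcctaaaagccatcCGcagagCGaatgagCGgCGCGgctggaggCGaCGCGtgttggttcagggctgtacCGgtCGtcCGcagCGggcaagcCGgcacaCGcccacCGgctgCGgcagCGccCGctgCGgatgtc
Kcnk5: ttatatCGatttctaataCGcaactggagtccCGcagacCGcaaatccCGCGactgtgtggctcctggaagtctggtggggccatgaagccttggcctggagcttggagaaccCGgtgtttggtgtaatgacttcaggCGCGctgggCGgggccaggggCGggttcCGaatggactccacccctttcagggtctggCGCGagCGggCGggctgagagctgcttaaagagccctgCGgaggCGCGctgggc
Cacna1s: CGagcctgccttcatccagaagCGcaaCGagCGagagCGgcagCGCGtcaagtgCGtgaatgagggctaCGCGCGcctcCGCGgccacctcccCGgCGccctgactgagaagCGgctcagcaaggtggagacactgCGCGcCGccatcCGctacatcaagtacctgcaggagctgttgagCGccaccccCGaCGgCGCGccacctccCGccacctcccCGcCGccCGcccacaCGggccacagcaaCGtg

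In the 250 bases before the most 5' TSS, the 65 channel genes with a SUZ12 peak in WT had a median of 16 CpG and the 49 others with a full window a median of 6. At least 10 CpG were found in 66.2% of the first and 30.6% of the second. Over all genes the medians were 15 in the 2989 genes with a SUZ12 peak and 11 in the 14431 without, and at least 1 CpG was present in 97.1% of all 17420 windows. Channel genes with SUZ12 thus resembled other SUZ12-bound genes in CpG content, and the channel genes without SUZ12 had a lower median than other genes of that class. Among genes with neither SUZ12 in WT nor H3K27ac in *Ezh2* Y726D, the medians were 6.5 for 32 channel genes and 6 for 5401 genes.

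Libraries held 3604123 to 5181553 reads on genes. The targeted genes followed the labels: *Ezh2* stood at 598 and 546 normalized counts in WT, at 1.05 and 0.968 in *Ezh2* KO and at 0.824 and 1.78 in *Ezh1/2* dKO, and *Ezh1* at 227 and 377 in WT, 14 and 20.4 in *Ezh1/2* dKO and 24.1 and 15.7 in *Ezh2* Y726D. The 8 pluripotency markers had 0 called genes, and their summed normalized count lay between 11900 and 14900 in every library. The 10 neural genes in the table summed to between 2220 and 3870, with *Stmn2* at 831 or above, *Tubb3* at 464 or above and *Nefl* at 246 or above in every library and *Snap25* at or under 6.71. The 8 muscle genes summed to 22.7 and 19.3 in WT, 14.6 and 39.7 in *Ezh2* KO, 39.6 and 74.6 in *Ezh1/2* dKO and 37.4 and 55.9 in *Ezh2* Y726D, and 0 were called. The summed counts of primitive endoderm and of trophectoderm markers were higher in *Ezh1/2* dKO and *Ezh2* Y726D, with values given beside the RNA results.

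SUZ12 peaks were found at 65 of the 115 channel genes in WT (56.5%), within 5 kb of a TSS and at a p of at most 1e-10. Over all 17424 genes with an mm9 position the share was 17.2%. H3K27me3 was found at 75 channel genes in WT (65.2%, all genes 22%). In *Ezh2* KO, 23 channel genes had SUZ12 (20%, all genes 4.86%) and 67 had H3K27me3 (58.3%, all genes 17.1%). In *Ezh1/2* dKO, 4 had SUZ12 (3.48%, all genes 1.17%) and 1 had H3K27me3 (0.87%, all genes 0.115%). In *Ezh2* Y726D, 45 had SUZ12 (39.1%, all genes 12.2%) and 0 had H3K27me3 (all genes 1.38%), so that SUZ12 peaks were called there without the mark. In *Ezh2* R685C, 43 had SUZ12 (37.4%, all genes 9.79%) and 86 had H3K27me3 (74.8%, all genes 28%), the highest count of the 5 lines. Each list comes from 1 library, so none of these differences was tested, and the lists differ in length and in unknown depth, from 317 SUZ12 peaks in *Ezh1/2* dKO to 5404 in WT. The H3K27me3 list of *Ezh2* R685C was also the longest of that mark, with 22245 peaks against 16754 in WT and 8956 in *Ezh2* KO. With every SUZ12 list of at least 1000 peaks limited to its strongest 1578, the channel genes with SUZ12 numbered 31 in WT, 23 in *Ezh2* KO, and 27 in each of *Ezh2* Y726D and *Ezh2* R685C, a narrower spread than with the full lists.

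**Figure D1:**
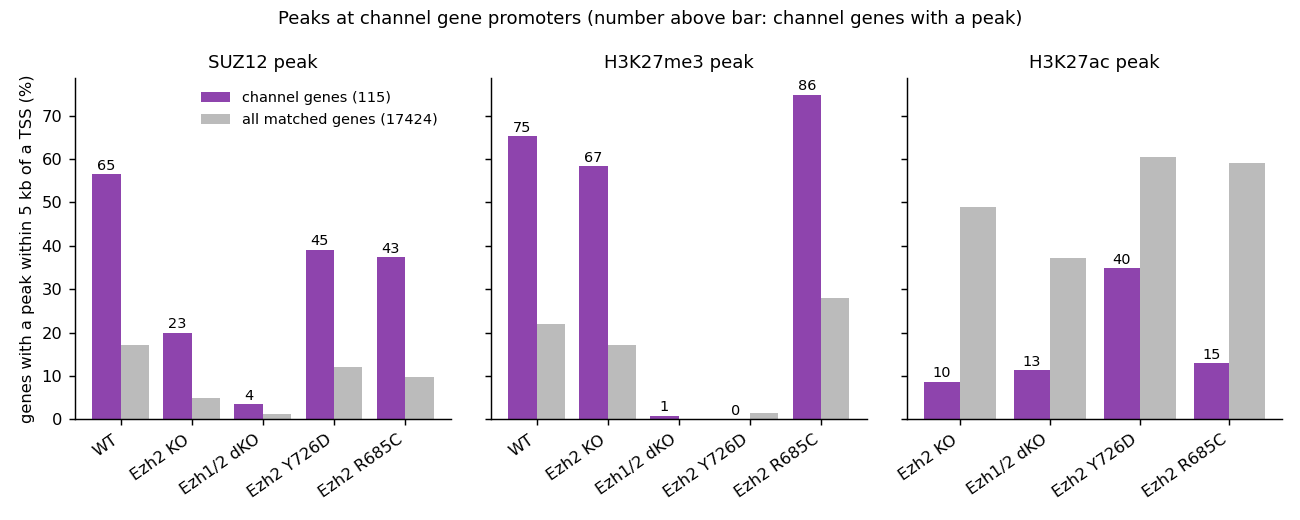
Percent of genes with a peak within 5 kb of a TSS (y axis) by line (x axis), for SUZ12, H3K27me3 and H3K27ac, with 1 library behind each bar. Purple bars are the 115 channel genes, with their number above the bar, and grey bars all 17424 matched genes: the channel genes stood above all genes for SUZ12 in every line and below all genes for H3K27ac in every line.

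The channel families, assigned by gene symbol and not by measured function, differed in how many members carried SUZ12 in WT. Among the voltage-gated K+ pore subunits, which repolarize the membrane, 26 of 35 had SUZ12 in WT, against 11 in *Ezh2* KO, 3 in *Ezh1/2* dKO, 20 in *Ezh2* Y726D and 19 in *Ezh2* R685C. The calcium channel pore subunits had SUZ12 at 8 of 9 genes in WT and at 3, 0, 7 and 6 in the same order of lines. Among the 8 is *Cacna1s*, whose WT SUZ12 summit lay inside the neighbouring gene *Ascl5*. The tandem-pore K+ channels, which carry the background leak current, had it at 7 of 9 in WT and at 2, 0, 7 and 6. These families held most of the bound channel genes. Fewer were bound among the calcium channel auxiliary subunits (7 of 15 in WT), the inward rectifiers (6 of 14) and the K+ auxiliary subunits (6 of 13). The sodium channel pore subunits, which start the action potential, had SUZ12 at 1 of 8 genes, and the sodium channel beta subunits at 2 of 4. Calcium- and sodium-activated K+ channels had it at 2 of 8.

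Of the 65 channel genes bound in WT, 4 had a SUZ12 peak in all 5 lines, 18 in all but *Ezh1/2* dKO, 14 in WT and both point mutants, 8 in WT and *Ezh2* Y726D, 5 in WT and *Ezh2* R685C, 1 in WT, *Ezh2* KO and *Ezh2* R685C, and 15 in WT alone. No line had SUZ12 at 48 channel genes, and 2 had it in 1 point mutant but not in WT. A SUZ12 peak in a mutant line was more frequent among genes with strong peaks in WT, and weak peaks lie nearer to the threshold. Of the 22 strongest (-log10 p of 53 to 127), 19 had SUZ12 in *Ezh2* KO, 22 in *Ezh2* Y726D and 21 in *Ezh2* R685C. Of the 21 in the middle (26.4 to 53) the counts were 3, 14 and 15, and of the 22 weakest (10.8 to 25.2) they were 1, 8 and 6. Among all 2989 SUZ12-bound genes, 28.3% kept SUZ12 in *Ezh2* KO against 35.4% of the channel genes, 60.4% against 67.7% in *Ezh2* Y726D, and 55.3% against 64.6% in *Ezh2* R685C.

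**Figure D2:**
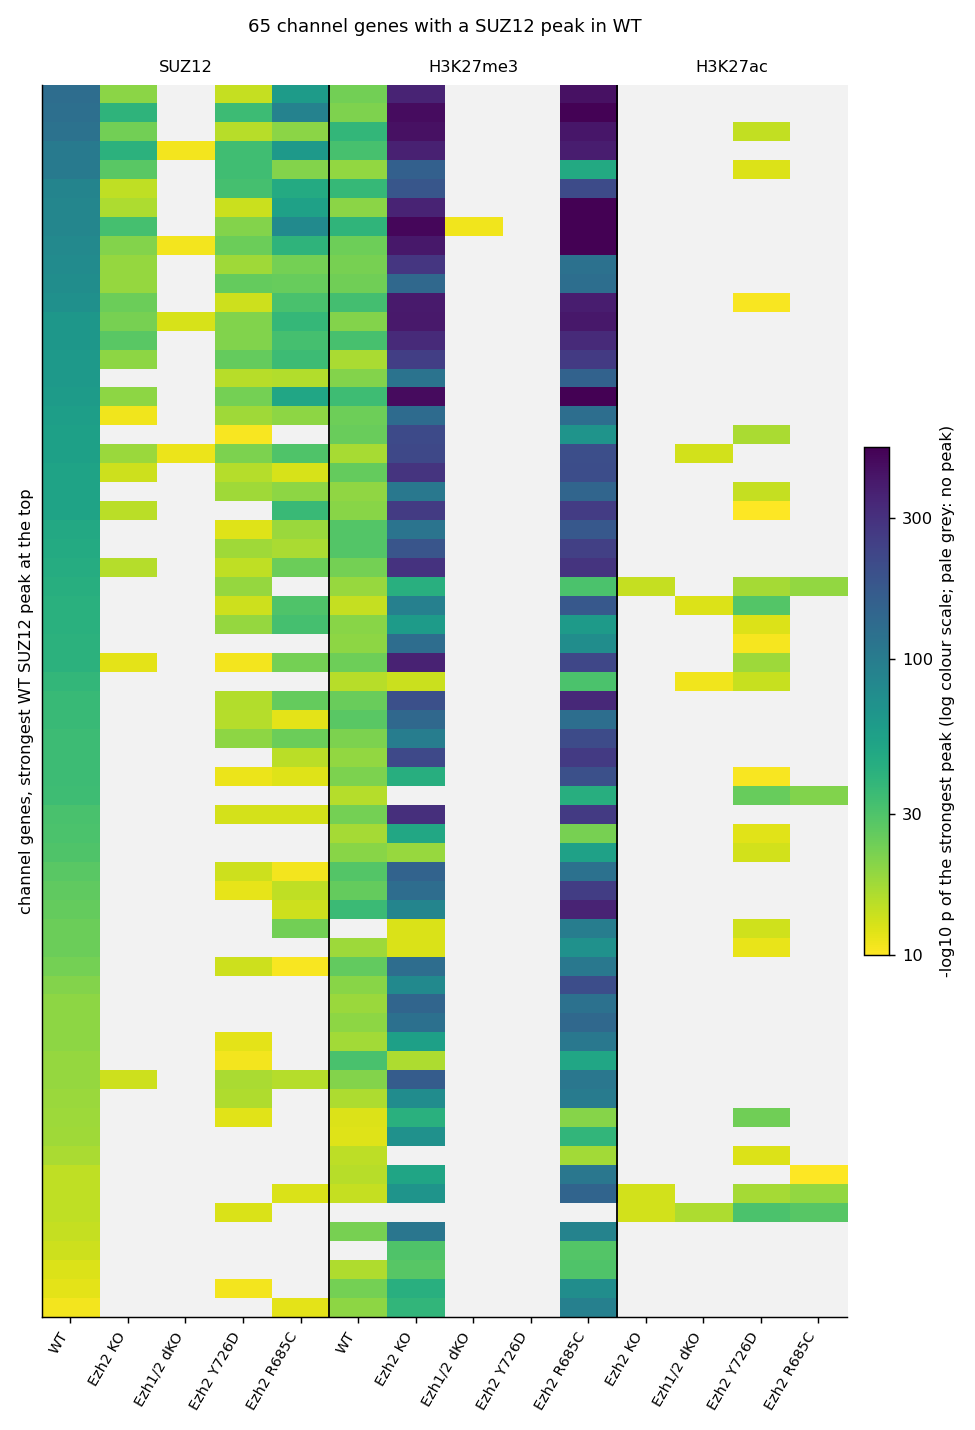
-log10 p of the strongest SUZ12, H3K27me3 or H3K27ac peak within 5 kb of a TSS (colour, log scale) for the 65 channel genes with SUZ12 in WT (rows, not named, sorted by the WT SUZ12 peak) in each line (columns), 1 library each. Pale grey marks no peak: H3K27me3 is grey at 64 rows in Ezh1/2 dKO and at all 65 in Ezh2 Y726D, while 62 rows have it in WT and 64 in Ezh2 R685C.

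The strongest WT SUZ12 peaks lay at *Kcnk13*, a tandem-pore channel (-log10 p of 127), *Kcna1*, a low-threshold axonal K+ channel (122), *Kcng3*, a silent subunit that modifies other K+ channels (118), *Kcnc4*, a fast K+ channel (103), and *Cacna2d3*, a calcium channel alpha2-delta subunit (101). *Scn4b* (87.5), *Cacna1g* (85.2), which encodes a T-type calcium channel, the silent subunit gene *Kcns1* (81.5) and the tandem-pore gene *Kcnk12* (77.1) followed. All of the 10 genes with the strongest peaks had SUZ12 in *Ezh2* KO, *Ezh2* Y726D and *Ezh2* R685C as well. At *Kcna1* the -log10 p was 39.8 in *Ezh2* KO, 34.8 in *Ezh2* Y726D and 90.6 in *Ezh2* R685C. A -log10 p depends on the depth of its own library and is set beside others here only to show where peaks were strong. The SUZ12 peaks left in *Ezh1/2* dKO were near the threshold of 10: *Kcnc4* and *Kcns1* at 10.8, the calcium channel beta subunit gene *Cacnb2* at 11.3 and *Kcna3*, a K+ channel of lymphocytes and neurons, at 12.6.

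Most of these strongly bound genes had few reads in any line. *Kcnk13* had 0 and 1 reads in WT, 0 and 0 in *Ezh2* KO, 0 and 2 in *Ezh1/2* dKO and 1 and 0 in *Ezh2* Y726D. *Kcna1* had 0 and 2, 0 and 1, 2 and 4, and 1 and 2 in the same order. *Kcng3* had 0 and 0, 2 and 0, 4 and 6, and 2 and 3. In the lines without called H3K27me3 at these promoters, the 3 genes thus had at most 6 reads a library. *Cacna1g* had 0 reads in WT and in *Ezh2* KO, 17 and 3 in *Ezh1/2* dKO and 1 and 9 in *Ezh2* Y726D. *Kcns1* had 1 and 1, 0 and 0, 4 and 2, and 7 and 12. *Scn4b* was the only one of the 10 to pass the count filter, a mean normalized count of at least 5.

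H3K27me3 in WT lay at 62 of the 65 SUZ12-bound channel genes (95.4%, all SUZ12-bound genes 90.8%) and at 13 of the 50 others. In *Ezh2* KO, it lay at 62 (95.4%, all SUZ12-bound genes 80.7%), although SUZ12 peaks were called at 23 of these genes. *Ezh2* R685C had the mark at 64 (98.5%, all SUZ12-bound genes 92.4%) and at 22 of the others. The median -log10 p of the H3K27me3 peaks at channel genes was 20.1 in WT, 126 in *Ezh2* KO and 107 in *Ezh2* R685C, and that of the SUZ12 peaks 36.3, 19.7 and 23. These values depend on the library and give no amount of the mark. The largest -log10 p of the whole H3K27me3 list was 72.28 in WT and 541.3 in *Ezh2* KO. By western blot the paper reports a global loss of H3K27me3 in *Ezh2* KO. By ChIP-seq it reports that most of the H3K27me3 sites found in WT were kept in this line.

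EZH1 was located through its HA tag in the transfected *Ezh1/2* dKO cells. An HA peak lay at 49 channel genes (42.6%, all genes 13.1%), against 2 in *Ezh1/2* dKO cells without the tagged protein (1.74%, all genes 3.63%). Of the 49, 47 had SUZ12 in WT, which is 72.3% of the bound channel genes (all SUZ12-bound genes 59.1%). The HA lists give no p, so no threshold was applied to them. *Kcnj3* had no HA peak, and *Scn4b* and the region near *Cacna1s* had one.

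H3K27ac was less common at channel genes than at other genes in each of the 4 lines profiled. It was found at 10 channel genes in *Ezh2* KO (8.7%, all genes 48.9%), 13 in *Ezh1/2* dKO (11.3%, all genes 37.1%), 40 in *Ezh2* Y726D (34.8%, all genes 60.4%) and 15 in *Ezh2* R685C (13%, all genes 59.1%). Within the window of 5 kb, the peak taken for each gene covered a TSS at only 1, 2, 7 and 3 of these genes, in the same order of lines. It lay nearest to a TSS of the channel gene itself at 8, 9, 36 and 11. The 2 point mutants had lists of nearly equal length, 40829 and 41185 peaks. Their difference at the channel genes depended on the threshold: at a p of at most 1e-20 the counts were 11 and 10, and with each list limited to its strongest 17618 peaks 18 and 10. Of the 65 SUZ12-bound channel genes, 22 had H3K27ac in *Ezh2* Y726D (33.8%, all SUZ12-bound genes 49.8%) and 5 in *Ezh2* R685C (7.69%, all SUZ12-bound genes 25.1%), against 3 in *Ezh2* KO (4.62%, all SUZ12-bound genes 18%) and 4 in *Ezh1/2* dKO (6.15%, all SUZ12-bound genes 21.5%). Of the 22 genes with the strongest WT SUZ12 peaks, 5 had H3K27ac in *Ezh2* Y726D, of the 21 in the middle 11, and of the 22 weakest 6. WT H3K27ac was not analysed here.

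Among the SUZ12-bound channel genes, the strongest H3K27ac peak of *Ezh2* Y726D lay at *Cacna1a*, the pore of the presynaptic calcium channel (-log10 p of 30.7). This gene had H3K27ac in all 4 lines and no H3K27me3 in any. *Kcnc2*, a fast K+ channel of interneurons, followed with 28.6, and had 12.2 in *Ezh1/2* dKO. *Kcnab3*, a beta subunit of K+ channels, had 24.9, *Kcnk1*, a tandem-pore channel, 23.5, *Kcnd3*, a transient K+ channel of heart and neurons, 17.8, and *Kcnn2*, a small-conductance calcium-activated K+ channel, 17. The inward rectifier gene *Kcnj6* had 17, *Kcng3* 14.4 and *Kcnk4*, a mechanosensitive tandem-pore channel, 14.1. Of the genes named here, *Cacna1a*, *Kcnn2* and *Kcnj6* also had H3K27ac in *Ezh2* KO. *Kcnab3* had H3K27ac in *Ezh2* R685C nearest to the TSS of *Cntrob*, so the peak cannot be told apart from one of the neighbour.

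H3K27me1 and H3K27me2 were compared at the 73 and 110 channel genes on chromosomes listed in all 4 lines, with the weak regions as deposited. H3K27me1 regions lay at 29 of 73 in WT (39.7%, all genes 74.6%), 66 in *Ezh2* KO (90.4%, all genes 57.3%), 65 in *Ezh1/2* dKO (89%, all genes 73.5%) and 70 in *Ezh2* Y726D (95.9%, all genes 85.2%). H3K27me2 regions lay at 83 of 110 in WT (75.5%, all genes 81.3%), 101 in *Ezh2* KO (91.8%, all genes 51.3%), 103 in *Ezh1/2* dKO (93.6%, all genes 88.4%) and 104 in *Ezh2* Y726D (94.5%, all genes 89.1%). *Ezh1/2* dKO, which lacks both enzymes, and *Ezh2* Y726D, whose EZH2 the paper describes as catalytically inactive, also had such regions at most channel genes. The paper reports that both lines lost every H3K27 methylation state. The counts of regions are therefore not read as a gain of either mark, and what they measure was not tested. ATAC-seq regions lay at all 115 channel genes in each of the 4 lines and at 99% of all genes in WT.

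Per kb of exon, *Kcnk5*, an alkaline-activated tandem-pore channel, had the highest level of the channel genes. It stood at 108 and 171 normalized counts per kb in WT, 118 and 141 in *Ezh2* KO, 105 and 97.1 in *Ezh1/2* dKO and 105 and 97.4 in *Ezh2* Y726D. Both libraries of *Ezh1/2* dKO and of *Ezh2* Y726D lay below both of WT, and the difference did not pass the test (log2 fold change -0.43, SE 0.22, limma adjusted p = 0.325 for *Ezh1/2* dKO; -0.42, SE 0.22, adjusted p = 0.439 for *Ezh2* Y726D). *Kcnk5* had no SUZ12 or H3K27me3 peak and H3K27ac in all 4 lines (-log10 p of 19.4 to 33.8). The second, *Kcnk1*, had a mean of 57.4 per kb over the 8 libraries. It had SUZ12 in WT (17.9) and *Ezh2* Y726D, and H3K27ac in *Ezh2* Y726D alone. H3K27me3 lay at *Kcnk1* in WT, *Ezh2* KO and *Ezh2* R685C. *Cacnb3* (40.5), *Kcnab3* (17.5), the silent subunit gene *Kcns3* (16.1), *Cacnb1* (14.9), *Cacng7* (11.8), *Kcnh3* (11) and the inward rectifier gene *Kcnj12* (8.62) were also among the 10 highest. *Cacnb3*, *Cacnb1* and *Cacng7* encode auxiliary subunits. In this order *Kcnk1* and *Cacnb3* were not separated by their libraries, which ranged from 22.7 to 84.5 per kb for *Kcnk1* alone. The H3K27ac peaks at *Cacnb1* lay nearest to the TSS of *Rpl19*.

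Every channel gene had a read in at least 1 library, but 64 of the 115 did not reach the count filter. Over all 115, the summed reads per 1e6 gene reads (CPM) were 313 and 363 in WT, 290 and 322 in *Ezh2* KO, 469 and 461 in *Ezh1/2* dKO and 418 and 431 in *Ezh2* Y726D, so that *Ezh1/2* dKO and *Ezh2* Y726D stood above WT and *Ezh2* KO in every library. The 65 SUZ12-bound genes had 135 and 121, 103 and 92.7, 243 and 244, and 207 and 220. The 50 others had 178 and 243, 186 and 229, 226 and 217, and 211 and 211, and their lines overlapped. *Kcnk5* held much of that sum. In a count without it, chosen after seeing the data, the other 49 unbound genes had 102 and 114 CPM in WT, 99.3 and 124 in *Ezh2* KO, 143 and 142 in *Ezh1/2* dKO and 130 and 139 in *Ezh2* Y726D, so that both *Ezh1/2* dKO and *Ezh2* Y726D lay above WT and *Ezh2* KO there too. In bulk RNA, more cells with a transcript and more transcript per cell cannot be told apart. Among the 64 genes under the filter, the 39 bound ones had 9.43 and 10.5 CPM in WT, 5.49 and 8.84 in *Ezh2* KO, 24.3 and 23.9 in *Ezh1/2* dKO and 15.6 and 25.6 in *Ezh2* Y726D. The 25 unbound ones had 6.38 and 8.18, 5.95 and 6.68, 18.7 and 15.1, and 10.1 and 8.85. All 4183 genes under the filter had 1070 and 1460 CPM in WT, 1010 and 1230 in *Ezh2* KO, 2330 and 2500 in *Ezh1/2* dKO and 1640 and 1530 in *Ezh2* Y726D. The rise at low counts in *Ezh1/2* dKO was thus shared with genes at large. In *Ezh2* Y726D, genes at large also lay above both WT libraries, but close to WT replicate 2. Channel genes with 0 reads numbered 36 and 31 in WT, 43 and 37 in *Ezh2* KO, 9 and 10 in *Ezh1/2* dKO and 23 and 23 in *Ezh2* Y726D. The share of all genes with 0 reads was 13.3% and 9.44%, 13.3% and 11.5%, 5.61% and 5.27%, and 9.17% and 10.8%. It was also lowest in *Ezh1/2* dKO, while *Ezh2* Y726D overlapped WT. Counts of genes with 0 reads were not adjusted for depth. The deepest library was *Ezh1/2* dKO replicate 1 (5181553 reads on genes) and the shallowest WT replicate 1 (3604123).

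**Figure D3:**
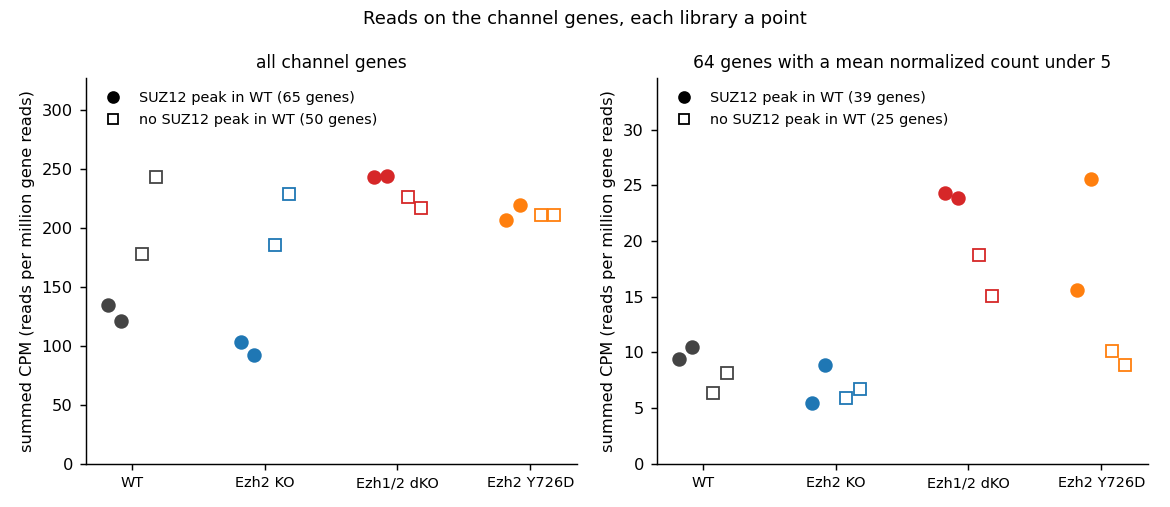
CPM summed over channel genes (y axis, linear) in each library of the 4 lines (x axis), with filled circles for genes with SUZ12 in WT and open squares for the others. In the left panel the 65 bound genes lie at 92.7 to 135 in WT and Ezh2 KO and at 207 to 244 in Ezh1/2 dKO and Ezh2 Y726D, and the right panel shows the genes with a mean normalized count under 5.

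The 51 channel genes above the filter were tested with all 13872 genes that passed it. Calls required a limma p below 0.1 after adjustment and a change of at least 1 on the log2 scale. Replicates are 2 libraries per line. The study calls its replicates biological, but neither it nor the labels say what separates these libraries, so the p-values measure the spread between these libraries. The comparisons with WT share the same WT libraries and are not independent of each other. Against WT, the 51 channel genes had a median log2 fold change of -0.11 for *Ezh2* KO, 0.42 for *Ezh1/2* dKO and 0.49 for *Ezh2* Y726D. In *Ezh1/2* dKO, 40 of the 51 were above 0 (78.4%, all genes 50.9%), and in *Ezh2* Y726D 38 (74.5%, all genes 49%). The filter used the mean of all libraries, so a gene low in WT could pass it through another line. Among genes with a mean of 5 to 50, which held 45 of the 51, the shares were closer. In *Ezh1/2* dKO 82.2% of these channel genes were above 0 (all genes of that range 72.5%), and in *Ezh2* Y726D 73.3% (57.4%). With quantile normalization, which forces libraries to 1 distribution, the median in *Ezh1/2* dKO was -0.20.

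Split by SUZ12 in WT, the 26 bound channel genes had a median of -0.40 for *Ezh2* KO, 0.71 for *Ezh1/2* dKO and 0.63 for *Ezh2* Y726D, where the 1942 bound genes tested had -0.10, 0.73 and 0.44. The 25 unbound channel genes had 0.11, 0.29 and 0.32, and the 11638 unbound genes 0.00, -0.04 and -0.04. Between *Ezh1/2* dKO and *Ezh2* KO the bound channel genes had 1.41 and all bound genes 0.84. Most tested channel genes were of low count: the 45 with a mean between 5 and 50 had a median of 0.55 in *Ezh1/2* dKO and in *Ezh2* Y726D, against 0.51 and 0.16 for the 4101 genes of that range.

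**Figure D4:**
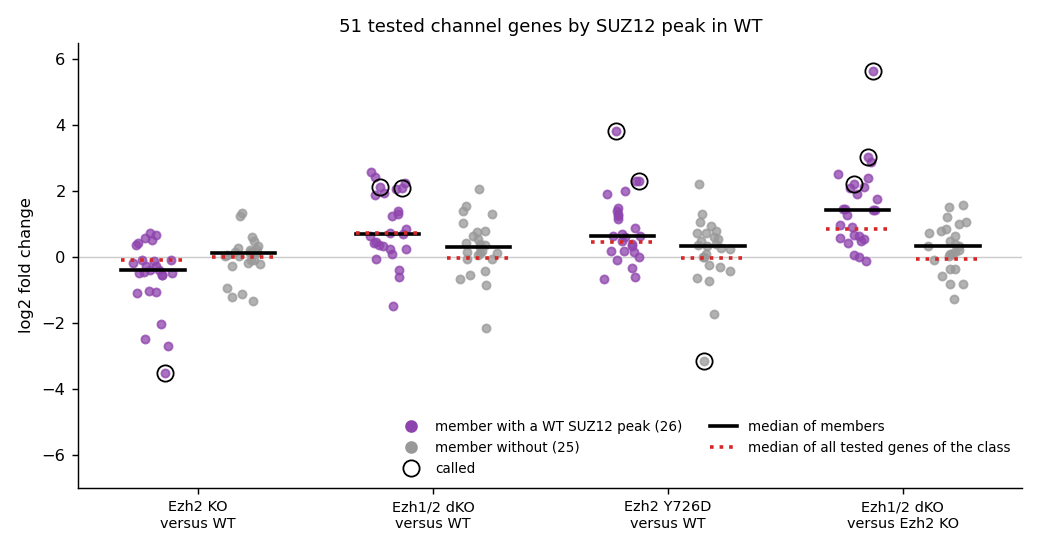
log2 fold change (y axis) of the 51 tested channel genes in 4 comparisons (x axis), purple with and grey without SUZ12 in WT, with black lines for their medians, red dotted lines for the median of all tested genes of the class and rings for called genes. The bound channel genes lie lower in Ezh2 KO (median -0.40) and higher in Ezh1/2 dKO (0.71) and Ezh2 Y726D (0.63).

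In *Ezh2* KO against WT, 0 channel genes were called higher (all genes 0.0937%) and 1 lower (all genes 0.31%, and 0.404% in either direction), the muscle calcium channel gene *Cacna1s*. At an unadjusted p under 0.05 there were 4 channel genes (all genes 8.83%). edgeR called 0, and DESeq2 called 0 higher and 1 lower. Both libraries lay above both WT libraries for 5 channel genes (all genes 18%) and below for 11 (all genes 17.6%). The largest rises were those of *Cacna2d4*, an alpha2-delta subunit of photoreceptors (1.35, SE 0.55, limma adjusted p = 0.505), *Kcnn3*, a calcium-activated K+ channel (1.25, adjusted p = 0.752), and *Cacnb4* (0.71, adjusted p = 0.821). None of these passed the test.

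In *Ezh1/2* dKO against WT, 2 channel genes were called higher (all genes 3.63%), *Cacna1s* and *Kcnj3*, and 0 lower (all genes 0.389%, and 4.02% in either direction). At an unadjusted p under 0.05 there were 10 channel genes (all genes 18.6%), and edgeR and DESeq2 each called 2 higher and 0 lower. Both libraries lay above both WT libraries for 22 channel genes (all genes 28%) and below for 5 (all genes 24.5%). *Kcnip3*, a calcium-binding partner of transient K+ channels, stood at 6.67 and 2.89 normalized counts in WT and at 23.9 and 25.7 in *Ezh1/2* dKO (log2 fold change 2.24, SE 0.77, limma adjusted p = 0.166). The inward rectifier gene *Kcnj4* stood at 0 and 4.81 against 12.4 and 11.5 (2.42, SE 0.99, adjusted p = 0.236). The largest falls were those of *Kcnh8*, an ether-a-go-go-like K+ channel (-2.15, SE 0.67, adjusted p = 0.135), *Kcnk2*, a mechanosensitive tandem-pore channel (-1.48, SE 1.21, adjusted p = 0.545), and *Kcnd1*, a transient K+ channel (-0.85, SE 0.57, adjusted p = 0.456). *Kcnh8* read 8 and 20.2 normalized counts in WT and 2.47 and 1.78 in *Ezh1/2* dKO, without overlap. The libraries overlapped for *Kcnk2*, at 13.3 and 5.78 in WT and 11.5 and 0 in *Ezh1/2* dKO.

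In *Ezh2* Y726D against WT, *Kcnj3* and *Scn4b* were called higher (all genes 1.66%) and *Kcnt2*, which encodes a sodium-activated K+ channel, lower (all genes 1.06%, and 2.72% in either direction). At an unadjusted p under 0.05 there were 9 channel genes (all genes 14.3%). edgeR called 2 higher and 0 lower, and DESeq2 2 higher and 1 lower. Both libraries lay above both WT libraries for 16 channel genes (all genes 19%) and below for 5 (all genes 18.1%). *Kcnk4* missed the threshold by little: it stood at 2.67 and 3.85 normalized counts in WT, 4.18 and 6.77 in *Ezh2* KO, 11.5 and 7.1 in *Ezh1/2* dKO and 14.3 and 28 in *Ezh2* Y726D (log2 fold change 2.32, SE 0.60, limma adjusted p = 0.101). Its promoter had SUZ12 in WT (53) and in *Ezh2* Y726D (17.6), with H3K27ac in *Ezh2* Y726D (14.1). *Kcnh8* (-1.72, SE 0.67, adjusted p = 0.282) and *Kcnip2*, a partner of transient K+ channels in the heart (-0.74, SE 0.45, adjusted p = 0.528), had the largest falls after *Kcnt2*. *Kcnc2*, with the second strongest H3K27ac peak, was at 61.5 in 1 *Ezh2* Y726D library and 2.24 in the other, so its level could not be judged.

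Between *Ezh1/2* dKO and *Ezh2* KO, 3 channel genes were called higher in *Ezh1/2* dKO (all genes 3.52%), among them *Cacna1s* and *Kcnj3*, and 0 channel genes lower (all genes 0.0577%, 3.58% in either direction, and 0 with edgeR and DESeq2). At an unadjusted p under 0.05 there were 15 channel genes (all genes 13.4%). Both *Ezh1/2* dKO libraries lay above both of *Ezh2* KO for 27 channel genes (all genes 26.6%) and below for 4 (all genes 26.9%). Between *Ezh2* Y726D and *Ezh1/2* dKO, *Cacna1s* was called lower in *Ezh2* Y726D (all genes 1.49%) and 0 channel genes higher (all genes 0.187%, 1.68% in either direction, and 0 with edgeR and DESeq2), with 6 at an unadjusted p under 0.05 (all genes 13.1%). The *Ezh2* Y726D libraries lay above both of *Ezh1/2* dKO for 9 (all genes 22.1%) and below for 10 (all genes 25.2%).

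*Kcnj3* (mm9, chr2:55288381-55450556) stood at 14.7 and 11.6 normalized counts in WT, 13.6 and 10.6 in *Ezh2* KO, 64.3 and 54.2 in *Ezh1/2* dKO and 64.2 and 73.8 in *Ezh2* Y726D. *Ezh1/2* dKO and *Ezh2* Y726D lay above both others in every library, and WT and *Ezh2* KO overlapped. Against WT, the mean was 4.52 times higher in *Ezh1/2* dKO (SE of the log2 fold change 0.38, limma adjusted p = 0.0295) and 5.26 times higher in *Ezh2* Y726D (2.32, SE 0.38, adjusted p = 0.026). Against *Ezh2* KO, *Ezh1/2* dKO was higher by 2.20 (SE 0.38, adjusted p = 0.0225), and *Ezh2* KO and WT did not differ beyond their spread (-0.11, SE 0.38, adjusted p = 0.957). The promoter had SUZ12 in WT only (24.1, 169 bp after the TSS), H3K27me3 in WT (17.9), *Ezh2* KO (12.6) and *Ezh2* R685C (70.1), and H3K27ac in *Ezh2* Y726D (11.3) and not in *Ezh1/2* dKO. The *Ezh2* Y726D call held without each single library, where a line left with 1 library is assumed to vary like the others, and was lost when only the libraries compared were fitted. The *Ezh1/2* dKO call against WT was lost without either *Ezh1/2* dKO library, with a log2 fold change of 1.98 without replicate 1 and 2.22 without replicate 2, and that against *Ezh2* KO was lost without the same libraries (2.08 and 2.32) and without *Ezh2* KO replicate 2 (2.04), and with quantile normalization (1.68).

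*Cacna1s* (mm9, chr1:137949327-138016399) stood at 42.7 and 17.3 normalized counts in WT, 1.05 and 1.94 in *Ezh2* KO, 95.6 and 156 in *Ezh1/2* dKO and 12.5 and 22.4 in *Ezh2* Y726D. The order of the lines was *Ezh1/2* dKO above WT and *Ezh2* Y726D, which overlapped, and *Ezh2* KO last with 3 reads in all. *Ezh2* KO was lower than WT by -3.53 on the log2 scale (SE 0.57, limma adjusted p = 0.054), a ratio of summed reads of 0.0539 (95% counting interval 0.0108 to 0.167). *Ezh1/2* dKO was higher than WT by 2.12 (SE 0.57, adjusted p = 0.0921) and higher than *Ezh2* KO by 5.65 (SE 0.57, adjusted p = 0.00219), a ratio of summed reads of 82.8 (counting interval 28.1 to 404). *Ezh2* Y726D differed from *Ezh1/2* dKO by -2.80 (SE 0.57, adjusted p = 0.0654) and from WT by -0.67 (SE 0.57, adjusted p = 0.687). Of the 4 calls, that between *Ezh1/2* dKO and *Ezh2* KO held under all alternatives run. The call in *Ezh2* KO against WT was lost without either *Ezh1/2* dKO library, either *Ezh2* KO library or WT replicate 1, with -3.79 to -2.90 on the log2 scale, and also with edgeR, no filter, only the libraries compared, a pseudocount of 4, quantile normalization and a replicate block. That in *Ezh1/2* dKO against WT was lost without either library of *Ezh1/2* dKO or *Ezh2* KO or WT replicate 2 (at most 2.47), and also with no filter, a pseudocount of 0.5, quantile normalization and a replicate block. The call between *Ezh2* Y726D and *Ezh1/2* dKO was lost without either *Ezh1/2* dKO library, *Ezh2* KO replicate 2 or *Ezh2* Y726D replicate 1 (-3.15 to -2.40), and also with no filter and with a replicate block.

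The SUZ12 peak near *Cacna1s* (34.8 in WT, 19.7 in *Ezh2* Y726D, 24.1 in *Ezh2* R685C, none in *Ezh2* KO or *Ezh1/2* dKO) had its summit 1591 bp before the TSS. By a match of RefSeq promoter sequences to mm9, this summit lay 355 bp after the start of *Ascl5*, a gene of 567 bp that encodes a basic helix-loop-helix factor, and within that gene. *Ascl5* had 2.67 normalized counts in WT replicate 1 and 0 in each other library. The bound stretch printed above is therefore not the promoter of *Cacna1s* itself. *Cacna1s* was still counted among the 65 bound channel genes, also in their summed reads and median fold changes. The WT H3K27me3 peak covered the *Cacna1s* start (21.8, 57 bp before the TSS), and those of *Ezh2* KO (96.9) and *Ezh2* R685C (212) lay over *Ascl5*. No other of the 65 bound channel genes had a second protein-coding gene starting nearer to its WT SUZ12 summit.

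*Scn4b* (mm9, chr9:44946520-44962235) stood at 1.33 and 0 normalized counts in WT, 0 and 4.84 in *Ezh2* KO, 8.24 and 7.99 in *Ezh1/2* dKO and 15.2 and 28 in *Ezh2* Y726D. *Ezh1/2* dKO and *Ezh2* Y726D lay above both others, at low counts. WT held 1 read and *Ezh2* Y726D 42, a ratio of 37.3 with a counting interval of 6.33 to 1510 (log2 fold change 3.82, SE 0.90, limma adjusted p = 0.0773). *Ezh1/2* dKO was higher by 2.58 and did not pass the test (SE 0.90, adjusted p = 0.172). The promoter had SUZ12 in WT (87.5), *Ezh2* KO (14.6), *Ezh2* Y726D (32.3) and *Ezh2* R685C (46.2), H3K27me3 in WT, *Ezh2* KO and *Ezh2* R685C, and H3K27ac in no line. The call was lost without either *Ezh1/2* dKO library (3.82), without *Ezh2* Y726D replicate 2 (3.40) and without WT replicate 2 (3.21), and also with no filter, only the libraries compared, a pseudocount of 0.5 and a replicate block.

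*Kcnt2* (mm9, chr1:142142793-142508640) stood at 20 and 23.1 normalized counts in WT, 31.4 and 30 in *Ezh2* KO, 33 and 16.9 in *Ezh1/2* dKO and 5.35 and 0 in *Ezh2* Y726D, which lay below every other library. It was lower in *Ezh2* Y726D than in WT by -3.16 (SE 0.79, limma adjusted p = 0.0928), with 6 reads against 39. The difference from *Ezh1/2* dKO was -3.29 (SE 0.79, adjusted p = 0.104) and was not called. It had no SUZ12 or H3K27me3 peak in any line, and H3K27ac in *Ezh2* Y726D (11.8) and *Ezh2* R685C (15.4). The call was lost without any single library of WT, *Ezh2* KO or *Ezh1/2* dKO (-3.26 to -3.06) and without *Ezh2* Y726D replicate 2 (-1.83), and also with edgeR, without a filter, with a pseudocount of 0.5 and in a fit of only the libraries compared.

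**Figure D5:**
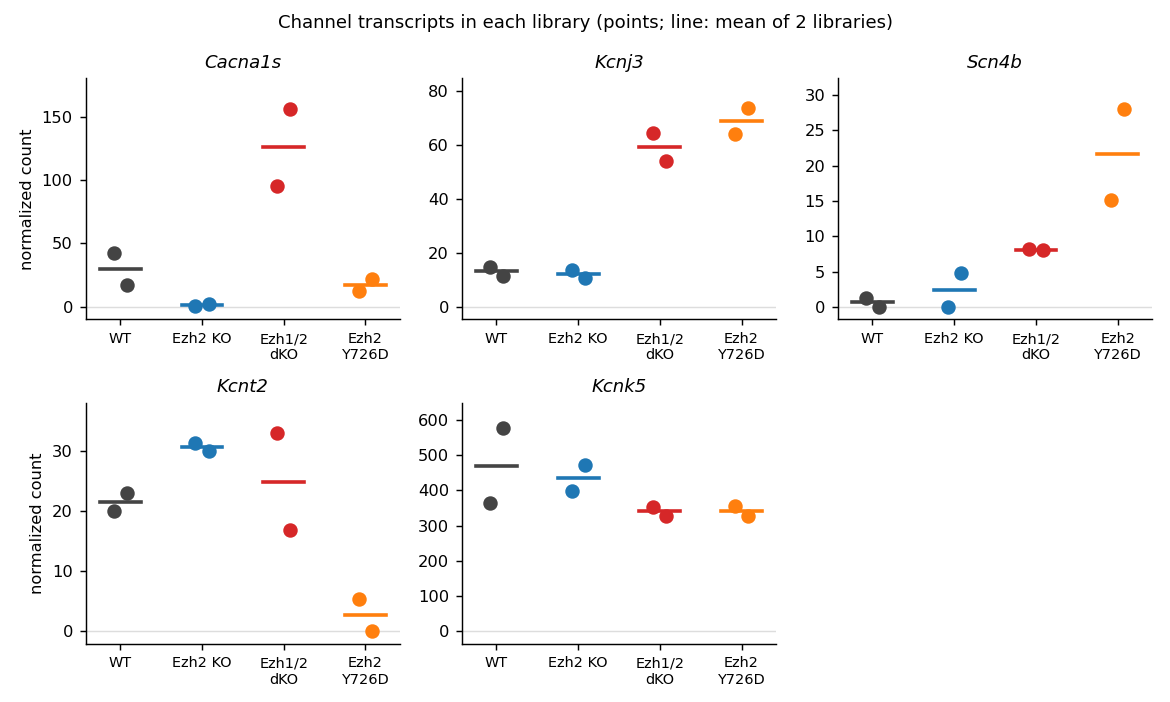
Normalized counts (y axis, linear and different in each panel) of 4 called channel genes and of Kcnk5 in each library (points) of the 4 lines (x axis), with a line at the mean of 2 libraries. Kcnj3 lies at 10.6 to 14.7 in WT and Ezh2 KO and at 54.2 to 73.8 in Ezh1/2 dKO and Ezh2 Y726D, Cacna1s is highest in Ezh1/2 dKO, and Kcnt2 is lowest in Ezh2 Y726D.

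Some markers of other cell types moved with the same lines. The 8 primitive endoderm markers summed to 447 and 523 normalized counts in WT, 374 and 675 in *Ezh2* KO, 1320 and 1330 in *Ezh1/2* dKO and 1020 and 1760 in *Ezh2* Y726D. Of the 5 tested, *Gata4*, *Dab2* and *Col4a1* were called higher in *Ezh1/2* dKO and *Col4a1* in *Ezh2* Y726D. *Lama1*, at 237 to 757 across the libraries, had log2 fold changes against WT of 0.17 and 0.30 in these lines, and *Sox7* 3.05 and 2.11, without a call. *Foxa2* and *Sox17* were at or under 2.89 in every library. The 8 trophectoderm markers summed to 491 and 365, 533 and 636, 841 and 1040, and 719 and 1340, with *Krt8*, *Krt18* and *Gata3* called higher in both lines. The other trophectoderm genes tested were not called. *Eomes* had log2 fold changes against WT of 0.04 in *Ezh1/2* dKO and 1.09 in *Ezh2* Y726D, *Tfap2c* 0.10 and -0.65, and *Cdx2* 0.84 and 2.15. *Cdx2* alone held 440 normalized counts in *Ezh2* Y726D replicate 2, against 33 in replicate 1. Of the 6 fibroblast genes in the table, 2 were tested: *Thy1* was called higher in both lines and *Fbn1* in *Ezh1/2* dKO. The others were low in every library: *Col1a1* was at or under 11.5 normalized counts, *Col1a2* 5.77, *Lum* 4.95 and *Dcn* 2.47. Of the 8 neural genes tested, 0 were called against WT, and *Nes* and *Rbfox3* were called higher in *Ezh1/2* dKO than in *Ezh2* KO. The part of these markers in the channel results was not tested.

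Channels outside the chosen families and channel partners were read beside them. Of 36 other ion channel genes, 29 were in the table and 22 were tested. In *Ezh1/2* dKO against WT, 3 of the 22 were called higher (all genes 3.63%) and 0 lower (all genes 0.389%). They were *Trpv4*, an osmosensitive cation channel (2.67 and 9.63 normalized counts in WT, 55.2 and 92.3 in *Ezh1/2* dKO, limma adjusted p = 0.031), *Trpc6*, a receptor-operated cation channel (1.98, SE 0.49, adjusted p = 0.0721), and *Clcn5*, an endosomal chloride transporter (1.09, SE 0.28, adjusted p = 0.0839). In the other 4 comparisons 0 were called. Of 22 partner and REST corepressor genes, 16 were tested and 0 were called in any of the 5 comparisons. *Rest*, the repressor that keeps many neuronal channel genes silent outside neurons, stood at 1370 and 1320 normalized counts in WT and at 837 to 1050 in the other lines. Its fall in *Ezh1/2* dKO of -0.62 (SE 0.12, adjusted p = 0.0355) was below the size needed for a call.

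No SUZ12, H3K27me3 or H3K27ac peak in any line was found at 16 channel genes (13.9%, all genes 16%), among them the neuronal sodium channel genes *Scn1a*, *Scn8a* and *Scn9a*. In 4 channel genes, exons share bases with a gene on the opposite strand, *Cacna1d*, *Cacna1h*, *Kcnh7* and *Kcnj13*, and since reads were counted without strand their counts cannot be told apart from those of the partner. None of the 5 called genes was among them.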

How the data were processed

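RNA-seq (SMART-seq2) was deposited as normalized counts: the authors aligned reads to mm9 with TopHat, removed duplicates with PICARD, counted without strand with HTSeq-count and divided by DESeq2 size factors, a signal per gene and library. The values were 100% whole multiples of 1 read, so reads were recovered (within 2e-11 of a whole read). Peak lists were made by the authors with Bowtie and MACS2; the deposited -log10 p of each peak was used (p of at most 1e-10 for SUZ12, H3K27me3 and H3K27ac), and HA lists hold positions only. Deposited comparisons with fold changes, p-values and group means hold the authors' results and were not used.

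limma 3.58.1 in R 4.3.3 was run on log2(normalized count + 1) over all 8 libraries and the 13872 genes with a mean of at least 5, with Benjamini-Hochberg adjustment; calls needed an adjusted p below 0.1 and a change of at least 1 on the log2 scale. On the recovered reads of *Ezh1/2* dKO and WT, edgeR 4.0.16 called 516 genes higher and 52 lower, and limma 503 and 54. Fits were tested on simulated data. Peaks were assigned within 5 kb of a GENCODE TSS with Python 3.11.15: 16570 genes matched by symbol and 854 by synonym. Neighbouring starts missing from that annotation were sought by matching RefSeq promoters (GRCm38.p6) to mm9 within 20 kb. Libraries held 3604123 to 5181553 reads; counting intervals (exact binomial, 95%) and floors cover counting error only.

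Genes named are those called, the 3 largest rises and falls against WT, the 10 highest per kb, the 10 strongest WT SUZ12 peaks, all with SUZ12 or H3K27me3 in *Ezh1/2* dKO, up to 10 SUZ12-bound genes with the strongest H3K27ac, and called genes of the fixed lists. The members and lists were chosen with earlier results of these data known. *Ascl5* and the genes without peaks were named after their values were seen. Replicate numbers were not used as pairs. RING1B, H2AK119ub, WT H3K27ac, input and the EZH2 rescue and MG132 samples were not analysed here. Results of some channel genes that met the naming rule are not reported here.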

Additional observations from a re-analysis of the deposited data

Results flagged for a closer look

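A test of the difference between 2 mutant lines (limma, adjusted over all genes tested) was passed by the genes given here. *Cacna1s* was 5.65 higher on the log2 scale in *Ezh1/2* dKO than in *Ezh2* KO, in both libraries of each line. *Kcnj3* was 2.20 higher in the same comparison, again without overlap of the libraries. *Cacna1s* differed by -2.80 between *Ezh2* Y726D and *Ezh1/2* dKO, both of which lack EZH1.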

How the results depend on the processing

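Counts of called channel genes moved most. Leaving out 1 library gave 0 to 1 calls in *Ezh2* KO against WT, 0 to 4 in *Ezh1/2* dKO against WT, 1 to 4 in *Ezh2* Y726D against WT, 1 to 4 between *Ezh1/2* dKO and *Ezh2* KO, and 0 to 1 between *Ezh2* Y726D and *Ezh1/2* dKO. In the first comparison, an adjusted p under 0.05, edgeR, no filter, a fit of only the libraries compared, a pseudocount of 4 and quantile normalization each gave 0. In *Ezh1/2* dKO against WT, an adjusted p under 0.05 and a pseudocount of 0.5 gave 1. In *Ezh2* Y726D against WT, an adjusted p under 0.05, a mean of at least 20 and a pseudocount of 0.5 gave 1, and only the libraries compared 0. Between *Ezh1/2* dKO and *Ezh2* KO, no filter gave 6, only the libraries compared 12 and quantile normalization 1. Between *Ezh2* Y726D and *Ezh1/2* dKO, DESeq2, a pseudocount of 4 and quantile normalization gave 2, and an adjusted p under 0.05 and no filter 0. Deviations of samples with the same replicate number had r of -0.41 to -0.07 between WT and the mutant lines and 0.22 to 0.29 among the mutant lines. Not every pair was positive, so the numbers were not taken to pair the samples. With a replicate block the calls were 0, 1, 2, 3 and 0 in the order above and the medians -0.11, 0.42, 0.49, 0.67 and -0.02. Without 1 library the medians ranged from -0.32 to -0.08, 0.36 to 0.59, 0.36 to 0.50, 0.67 to 0.75 and -0.05 to 0.06. A mean of at least 20 gave -0.23, 0.32 and 0.37 against WT. No filter gave 0.65 in *Ezh1/2* dKO against WT, 0.80 between *Ezh1/2* dKO and *Ezh2* KO and -0.28 between *Ezh2* Y726D and *Ezh1/2* dKO. A pseudocount of 4 gave 0.37 in *Ezh2* Y726D against WT and 0.56 between *Ezh1/2* dKO and *Ezh2* KO. Quantile normalization gave -0.02, -0.20 (reversed), 0.31, 0.02 and 0.33 in the 5 comparisons. The cause of these moves was not tested. At a p of at most 1e-20, SUZ12 counts were 9 in *Ezh2* KO, 0 in *Ezh1/2* dKO, 12 in *Ezh2* Y726D and 24 in *Ezh2* R685C, H3K27me3 counts 40 in WT and 0 in *Ezh1/2* dKO, and H3K27ac counts 3 in *Ezh2* KO and in *Ezh1/2* dKO and 11 in *Ezh2* Y726D. Lists of equal length gave SUZ12 at 31 genes in WT and 27 in each point mutant, and H3K27ac at 18 in *Ezh2* Y726D. They were not run for the SUZ12 and H3K27me3 lists of *Ezh1/2* dKO, which are under 1000 peaks. A window of 1 kb gave H3K27ac at 3 genes in *Ezh2* KO and 7 in *Ezh1/2* dKO, and one of 10 kb gave H3K27me3 at 3 in *Ezh2* Y726D and H3K27ac at 23 in *Ezh2* R685C. Of 187 alternatives for single called genes, 122 kept the call, 65 lost it and 0 turned the direction. The alternative that keeps only peaks nearest to the gene's own TSS was chosen after seeing the data, and moved no count past 1.5 times. Each line has 2 libraries, and 64 of the 115 channel genes lay under the count filter and were not tested.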
